A study of Mus musculus with 13 samples.

Results

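FGF signalling was followed through 10 genes in UG26-1B6 stromal cells before and during co-culture with haematopoietic progenitors. The genes were the ligands Fgf2 and Fgf7, the receptors Fgfr1 and Fgfr2, the Sprouty inhibitors Spry1, Spry2 and Spry4, the phosphatase gene Dusp6 and the ETS transcription factors Etv4 and Etv5. They were chosen by name out of 18193 genes with a probe set of their own on an Affymetrix mouse array, and each was read from the probe set with the highest mean over all 13 arrays. Of the 10, 9 passed the filter on low values and entered the test (Spry4 and Etv4 only through 2 co-culture arrays each), and 7 lay above 5 on the log2 scale at day 0.

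FGF ligands bind tyrosine kinase receptors together with heparan sulphate chains, and the receptor passes the signal through RAS and RAF to the kinase ERK. ERK activity induces the genes of its own brakes, among them the Sprouty proteins, which dampen the step at RAS and RAF, and DUSP6, a phosphatase that removes the activating phosphates from ERK. ETV4 and ETV5 are transcription factors whose genes are induced by FGF in many tissues, so Sprouty, Dusp6 and Etv genes are commonly read as a record of FGF activity. FGF7 is a mesenchymal ligand that acts mainly on epithelial cells carrying the IIIb form of FGFR2.

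UG26-1B6 is 1 clone of stroma from the embryonic mouse urogenital ridge, and all groups were of this clone. Day 0 cells (d0, n = 3) were collected with trypsin without co-culture. The medium control (medium d1, n = 2) was taken 24 h after fresh medium was given. For co-culture, confluent stroma irradiated with 30 Gy received about 100000 LSK cells per well, which are lineage-negative, Sca-1+ c-Kit+ progenitors, and was harvested after 1 day (LSK d1, n = 3), 2 days (LSK d2, n = 3) or 3 days (LSK d3, n = 2) at 33 °C. The labels do not say whether d0 and medium control cells were irradiated, nor whether LSK cells were removed before RNA extraction. They give a temperature for co-culture alone. Irradiation, handling, temperature and LSK cells therefore cannot be told apart where co-culture is set against either control. The only medium control was at 24 h, so LSK d2 and LSK d3 have no control of the same time. Days in culture thus cannot be told apart from co-culture there or in a comparison over all co-culture days. The labels call replicates biological in one place and technical in another, so p-values cover only the spread between these arrays.

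Values are log2 expression, from 2.28, the lowest value on any array, to 15.74. At day 0, 12 of 13 stromal markers lay above 5, with Thy1 the exception. Their mean was 9.83 to 11.02 at d0, 10.22 to 10.31 in medium, 9.31 to 10.27 on LSK d1, 6.84 to 9.42 on LSK d2 and 9.43 to 9.55 on LSK d3. The mean of 15 haematopoietic markers was 3.24 to 3.30 at d0 and 3.14 to 3.18 in medium, and higher in co-culture, at 4.20 to 5.01, 5.47 to 8.98 and 6.16 to 6.93 on days 1, 2 and 3. Ptprc, the pan-leukocyte gene encoding CD45, was at the lowest value on all 5 arrays without LSK cells and at 2.69 to 4.13, 6.94 to 10.93 and 5.34 to 9.18 on the co-culture days, while Kit did not exceed 2.38 on any array. LSK d2 replicate 1 stood apart from the other arrays, with a best correlation of 0.785 with any of them, the lowest stromal and highest haematopoietic mean and a Gapdh 3' minus 5' difference of 8.96 where the other arrays, apart from LSK d3 replicate 2 at 5.79, lay at or below 3.82. Poly-A spike signal was also higher in co-culture, at 6.78 to 12.83 against 3.31 to 6.01 without LSK cells. Fewer stromal cells in a sample and less RNA per cell cannot be told apart in these data, and the part of the cell mixture and of the spike difference in the results below was not tested.

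Across the design, in the probe sets used, Spry1, Fgf7 and Etv5 lay lower on every co-culture array than on any other. In the same sets, Spry2, Dusp6, Fgfr1 and Fgfr2 overlapped between arrays with and without LSK cells. In dimmer second sets, Fgf7 overlapped and Fgfr2 did not. In limma, with p-values adjusted by Benjamini-Hochberg over 12205 genes and a threshold of 0.05, Spry1 passed against day 0 on each day of co-culture and Fgf7 on day 2. No member passed in the medium control against d0 (0 of 9), where 0.328% of all genes passed, and 0 of 9 had an unadjusted p under 0.05, beside 9.45% of all genes. Against the medium control on day 1, 0 of 9 members passed, beside 5.2% of all genes. At an unadjusted p under 0.05 there were 2 of 9 (22.2%), near the 20.9% of all genes. Against d0, 1 of 9 fell on LSK d1 (1.33% of all genes passed and were lower), 2 of 9 on LSK d2 (1.62%) and 1 of 9 on LSK d3 (0.467%). An unadjusted p under 0.05 against d0 was found for 22.2%, 44.4% and 11.1% of the members on the 3 days. Of all genes, 17.3%, 26.3% and 13.8% had one. All members that passed were lower. Between co-culture days, 0 of 9 passed on LSK d2 or LSK d3 against LSK d1, beside 0.00819% of all genes in each. At an unadjusted p under 0.05 there was 1 of 9 (11.1%) in each, beside 12.6% of all genes on LSK d2 and 2.93% on LSK d3.

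**Figure D1:**
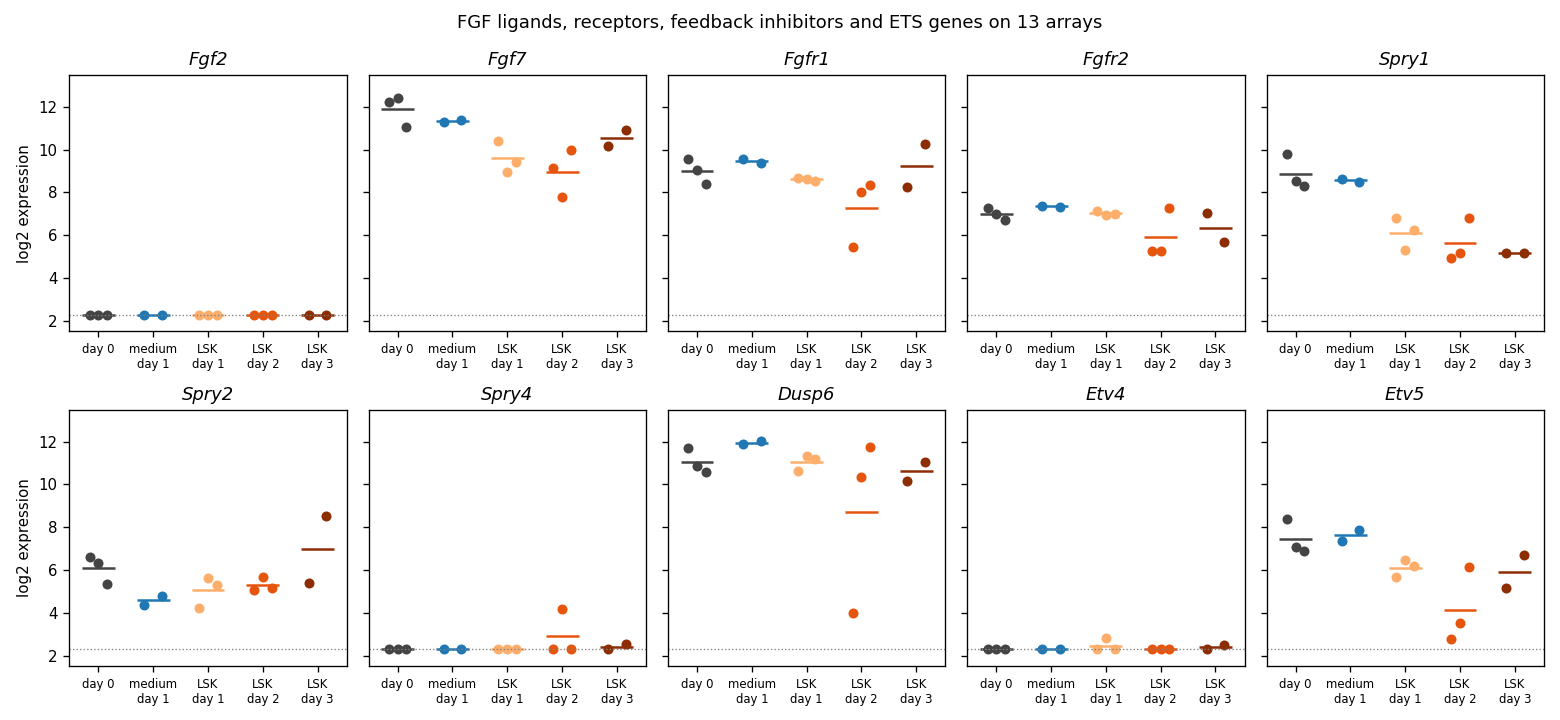
Log2 expression of the 10 genes, 1 panel per gene, on each of the 13 arrays (points) by group, with group means as bars and the lowest value of the data, 2.28, as a dotted line. Spry1, Fgf7 and Etv5 sit lower on all 8 co-culture arrays than on the 5 others, and Fgf2, Spry4 and Etv4 lie at or near the dotted line.

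A comparison of all co-culture days with both groups lacking LSK cells was added after the values had been seen, so its results are not independent of them. It set the mean of the 3 co-culture group means against the mean of the d0 and medium means, and 3 of 9 members were lower, beside 11% of all genes. These were Spry1, Fgf7 and Etv5, the same 3 of 10 whose 8 co-culture arrays did not overlap the 5 arrays without LSK cells. Of all genes, 7.69% lay apart in that direction. Over all co-culture days, 3 of 9 members (33.3%) had an unadjusted p under 0.05, near the 31.2% of all genes. Centring the arrays on their measured probe sets raised the median change of all genes on day 2 against d0 from -0.29 to 0.49, and Spry1, Fgf7 and Etv5 stayed lower in co-culture under that and under quantile scaling.

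**Figure D2:**
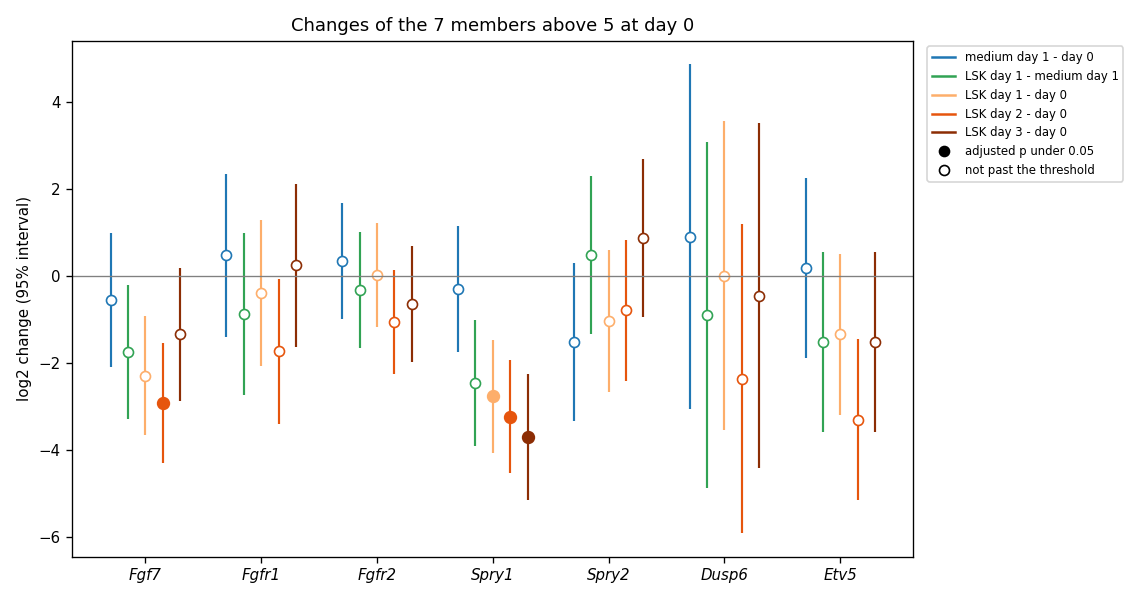
Log2 change of the 7 genes above 5 at day 0, with 95% intervals, in the medium control against d0, on LSK d1 against medium, and on each co-culture day against d0; filled points passed an adjusted p of 0.05. Spry1 is filled on all 3 days against d0 and Fgf7 on day 2, and every other point is open.

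Of the ligands, Fgf7 was measured on every array and Fgf2 lay at the lowest value. Fgf7 stood at 12.22, 12.42 and 11.04 on the d0 arrays and at 11.28 and 11.40 in medium. In co-culture it stood at 10.42, 8.94 and 9.44 on day 1, at 9.15, 7.77 and 10.00 on day 2, and at 10.17 and 10.93 on day 3. All 8 co-culture arrays were below all 5 others, with day 3 replicate 2 (10.93) close to d0 replicate 3 (11.04). Against d0, Fgf7 fell on day 2 (-2.92 ± 0.61 SE, adjusted p = 0.0458), while the differences were -2.29 ± 0.61 on day 1 (adjusted p = 0.0879) and -1.34 ± 0.68 on day 3 (adjusted p = 0.428). Against medium the day 1 difference was -1.74 ± 0.68 (adjusted p = 0.181), and medium itself differed from d0 by -0.55 ± 0.68 (adjusted p = 1). The group mean was lowest on day 2, and neither day 2 (-0.63, adjusted p = 0.605) nor day 3 (0.95, adjusted p = 1) passed against day 1. Day 3 was not tested against day 2.

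The day 2 call for Fgf7 held without LSK d2 replicate 3 (adjusted p = 0.00464) and was lost without any other single array (adjusted p = 0.0564 to 0.161), the difference staying between -3.43 and -2.32. Over all co-culture days Fgf7 was lower by 1.91 on the log2 scale (-1.91 ± 0.44, adjusted p = 0.0181), and this call was lost without medium replicate 1 (adjusted p = 0.0775) or medium replicate 2 (adjusted p = 0.0816). The second Fgf7 probe set, with lower signal, gave 7.26, 8.53 and 7.87 at d0, 7.18 and 6.77 in medium, 5.56 to 5.58 on every array of days 1 and 2, and 7.05 and 5.38 on day 3. It too was lower in all co-culture arrays of days 1 and 2, and on day 3 only replicate 2 was.

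Fgf2, a ligand that stromal and many other cells can make, was at 2.28 to 2.29 on all 13 arrays with its only probe set and did not pass the filter. Of 20 other FGF ligand genes, 5 passed the filter and 0 passed in any of the comparisons (0 at an unadjusted p under 0.05 on day 2 against d0). Fgf18 was the only one above 5 at day 0, with a mean of 5.13.

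The receptors Fgfr1 and Fgfr2 were expressed in every group and passed in no comparison of the main fit, which gave all arrays equal weight. Fgfr1, the main FGF receptor of mesenchyme, stood at 9.56, 9.05 and 8.41 at d0, 9.57 and 9.40 in medium, 8.68, 8.63 and 8.53 on day 1, 5.47, 8.02 and 8.34 on day 2 and 8.26 and 10.25 on day 3. The low value belongs to LSK d2 replicate 1, the array that stood apart, and the high one to LSK d3 replicate 2. The groups overlap without these arrays as well, since d0 replicate 3 (8.41) lay below every day 1 array. Over all co-culture days the Fgfr1 difference was -0.86 (limma adjusted p = 0.308), and -0.895 without both of these arrays. The day 2 difference from d0 was -1.73 ± 0.74 (adjusted p = 0.179), and -0.83 (adjusted p = 0.366) without LSK d2 replicate 1. A second Fgfr1 probe set gave 2.75 on LSK d2 replicate 1 and 6.90 to 7.72 on the other 12 arrays, and arrays with and without LSK cells overlapped on it too. The remaining set, near the lowest value, went lower in co-culture, at 2.69 to 5.47 on the 5 arrays without LSK cells and at 2.28 to 2.30 on 7 of 8 co-culture arrays, with LSK d2 replicate 2 at 3.19. The probe sets of Fgfr1 thus disagree.

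Fgfr2, the receptor whose IIIb form binds FGF7, lay at 7.29, 7.01 and 6.69 at d0, 7.36 and 7.32 in medium, 7.12, 6.94 and 7.01 on day 1, 5.27, 5.27 and 7.26 on day 2 and 7.04 and 5.67 on day 3. The 3 arrays below 6 were all from co-culture days 2 and 3, and the other arrays of those days were at the control level. The differences from d0 were 0.03 on day 1, -1.06 on day 2 (adjusted p = 0.229) and -0.64 on day 3 (adjusted p = 0.729). Without LSK d2 replicate 3, the array of that day at the control level, the day 2 difference was -1.72 and passed (adjusted p = 0.00953), as did day 2 against day 1 (-1.75, adjusted p = 0.0147). The day 2 arrays then left were both at the same repeated low value, 5.27, and 1 of them was LSK d2 replicate 1. The size and spread of these differences are therefore not resolved. A second, dimmer Fgfr2 set did not overlap between the groups, at 2.83 to 4.31 on the 5 arrays without LSK cells and 2.28 to 2.71 on all 8 with them. With the mean of both sets, Fgfr2 was lower over all co-culture days (-0.86, adjusted p = 0.0334), which it was not in the set used alone (-0.73, adjusted p = 0.222). Which form of the receptor this probe set reads was not analysed here. Of 5 other receptor and co-receptor genes, Fgfrl1, a receptor without a kinase domain (9.71 at d0), and Fgfr3 (4.30) passed the filter, and Fgfr4, Kl and Klb did not.

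Over all co-culture days, Spry1 had the largest difference of the 10 genes. On the d0 arrays it stood at 9.78, 8.56 and 8.29, and in medium at 8.63 and 8.51. In co-culture it stood at 6.79, 5.31 and 6.23 on day 1, at 4.93, 5.17 and 6.82 on day 2 and at 5.17 on both arrays of day 3. The highest co-culture value, 6.82, lay below the lowest value without LSK cells, 8.29, and medium lay within the d0 range. The group means were 8.87 ± 0.79 at d0 (SD, n = 3), 8.57 ± 0.08 in medium (SD, n = 2), 6.11 ± 0.75 on day 1 (SD, n = 3), 5.64 ± 1.03 on day 2 (SD, n = 3) and 5.17 on day 3. Against day 1, the difference was -0.47 ± 0.58 on day 2 (adjusted p = 0.687) and -0.94 ± 0.65 on day 3 (adjusted p = 1), and day 3 was not tested against day 2.

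Against d0, Spry1 fell by 2.76 on day 1 (-2.76 ± 0.58, adjusted p = 0.046), by 3.23 on day 2 (-3.23 ± 0.58, adjusted p = 0.0319) and by 3.70 on day 3 (-3.70 ± 0.65, adjusted p = 0.0405). These comparisons share the 3 d0 arrays. Against medium on day 1 the difference was -2.46 ± 0.65 (adjusted p = 0.0599), with a 95% interval of -3.91 to -1.01, and medium differed from d0 by -0.31 ± 0.65 (adjusted p = 1). The value 5.17 was identical on LSK d2 replicate 2 and both day 3 arrays, so the size of the day 3 difference and its spread are not resolved. Spry1 has 1 probe set on the array, and no second set can be placed beside it.

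The Spry1 calls against single groups depended on which array was left out. The day 1 call against d0 held without any 1 of the LSK d2 arrays (adjusted p = 0.015 to 0.0431) and was lost without any 1 of the other 10 (0.0611 to 0.179). The day 2 call held without d0 replicate 3, LSK d2 replicate 3 or either day 3 array (0.00149 to 0.0496) and was lost without any 1 of the other 9 (0.0505 to 0.1). The day 3 call held without any 1 of the LSK d2 arrays (0.0132 to 0.0389) and was lost without any 1 of the other 10 (0.0605 to 0.133). Against medium, the difference passed without d0 replicate 1 (0.0491), LSK d2 replicate 1 (0.0307) or LSK d2 replicate 3 (0.0237). With no array left out it passed under quantile normalization (0.0365) and array weights (7.42e-05), but not with a replicate block (0.0944). In all, it passed in 7 of 23 alternatives. Over all co-culture days Spry1 was lower by 3.08 on the log2 scale (-3.08 ± 0.41, adjusted p = 0.0028), and that call held without each of the 13 arrays in turn (adjusted p = 0.000549 to 0.0236).

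Spry2, a close relative of Spry1 and also an inhibitor of receptor tyrosine kinase signalling, showed no such split of the arrays. It stood at 6.58, 6.31 and 5.37 at d0, 4.38 and 4.76 in medium, 4.23, 5.62 and 5.30 on day 1, 5.05, 5.66 and 5.18 on day 2 and 5.37 and 8.55 on day 3. The lowest values were in medium and on day 1 and the highest on LSK d3 replicate 2, and arrays with and without LSK cells overlapped. Medium differed from d0 by -1.51 ± 0.81 (adjusted p = 0.651), and day 3 from day 1 by 1.91 ± 0.81 (adjusted p = 1).

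The difference between the 2 Sprouty genes is given as a description, since the pair was picked for it. Spry1 minus Spry2 was 3.27 ± 0.77 (SD, n = 5) on the arrays without LSK cells and 0.08 ± 1.77 (SD, n = 8) with them, a shift of -3.19 in log2 units. It was lower than every control array on 7 of 8 co-culture arrays, whose highest value, 2.56, lay above the lowest control value, 2.24.

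Spry4, also a Sprouty gene, was at 2.28 to 2.29 on 11 of 13 arrays and at 4.15 and 2.54 on LSK d2 replicate 2 and LSK d3 replicate 2. Its other 3 probe sets did not pass the filter. The difference from d0 on day 2 was 0.62 (adjusted p = 0.346), and rests on 1 array.

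Dusp6, the ERK phosphatase, lay between 10.18 and 12.03 on all arrays but 1 and passed in no comparison without array weights. It stood at 11.71, 10.88 and 10.59 at d0, 11.89 and 12.03 in medium, 10.63, 11.34 and 11.20 on day 1, 4.005, 10.36 and 11.73 on day 2 and 10.18 and 11.03 on day 3. The value of 4.005 again belongs to LSK d2 replicate 1, and all other co-culture arrays lay at 10.18 to 11.73. The day 2 difference from d0 was -2.36 ± 1.58 (adjusted p = 0.338) with that array and -0.01 (adjusted p = 1) without it, while the day 1 difference was 0.00. Against medium, Dusp6 differed by -0.90 ± 1.77 on day 1 (adjusted p = 0.931), and all day 1 arrays lay below both medium arrays. The SE is from the fit over all 13 arrays and so includes the 4.005, which is in neither group. The limma adjusted p was 0.244 without LSK d2 replicate 1 and 0.0257 with array weights.

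Of the ETS genes, Etv5 was measured on every array and Etv4 lay at or near the lowest value. Etv5 stood at 8.41, 7.06 and 6.87 at d0 and at 7.37 and 7.87 in medium. In co-culture it stood at 5.68, 6.47 and 6.17 on day 1, at 2.75, 3.51 and 6.15 on day 2 and at 5.15 and 6.70 on day 3. All co-culture arrays were below all others, with LSK d3 replicate 2 (6.70) close to d0 replicate 3 (6.87). Against d0 the differences were -1.34 on day 1 (adjusted p = 0.477), -3.31 ± 0.83 on day 2 (adjusted p = 0.067) and -1.52 on day 3 (adjusted p = 0.522), and on day 1 against medium -1.52 ± 0.92 (adjusted p = 0.421). None of these passed in the main fit, which gave all 13 arrays equal weight. With array weights, the limma adjusted p was 0.0027 on day 1 against medium. Against d0 it was then 0.0887 on day 1, 0.015 on day 2 and 0.462 on day 3. The day 2 difference was -4.32 and passed without LSK d2 replicate 3 (adjusted p = 0.00169), and was -2.61 without LSK d2 replicate 1 (adjusted p = 0.115).

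Over all co-culture days Etv5 was lower by 2.15 (-2.15 ± 0.59, adjusted p = 0.0355). The call held without d0 replicate 3, LSK d2 replicate 1, LSK d2 replicate 3 or LSK d3 replicate 2 (adjusted p = 0.00268 to 0.0499) and was lost without any 1 of the other 9 arrays (0.055 to 0.143). The other 2 Etv5 probe sets did not pass the filter, so the Etv5 values rest on 1 set. Etv4 was at 2.28 on 11 arrays and reached 2.80 and 2.48 on LSK d1 replicate 2 and LSK d3 replicate 2.

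Etv5 and Dusp6, both commonly induced downstream of ERK, are described in the same way. Etv5 minus Dusp6 was -3.90 ± 0.46 (SD, n = 5) without LSK cells and -4.74 ± 1.59 (SD, n = 8) with them, a shift of -0.84. Without LSK d2 replicate 1, where Dusp6 was at 4.005, the shift was -1.33.

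**Figure D3:**
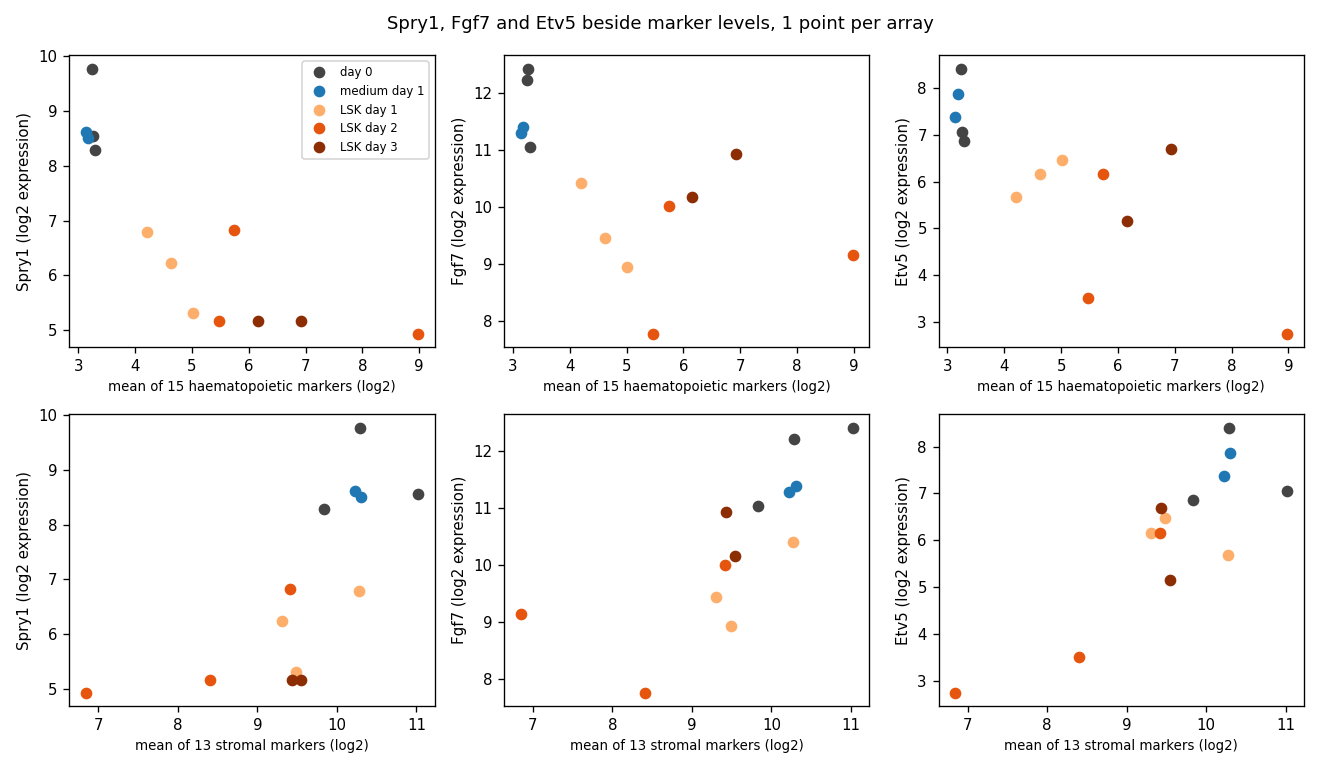
Log2 expression of Spry1, Fgf7 and Etv5 (vertical axes, 1 column each) on the 13 arrays, coloured by group, against the mean log2 level of 15 haematopoietic markers (upper row) and of 13 stromal markers (lower row) on the same array. On day 1 of co-culture, where the haematopoietic mean is 4.20 to 5.01 and the stromal mean 9.31 to 10.27, Spry1 lies at 5.31 to 6.79.

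Stromal marker levels also moved in co-culture, and their part in the differences of the 10 genes was not tested. On day 1 the 12 measured stromal markers changed from d0 by -2.71 to 1.02 with a median of -0.67, 0 past the threshold and 2 at an unadjusted p under 0.05, and the lowest was the collagen gene Col3a1. On day 2 they changed by -5.10 to -0.25 with a median of -2.12, and 1 of 12 was lower, the chemokine gene Cxcl12. On that day 8 of the 12 had an unadjusted p under 0.05, beside 26.3% of all genes. On day 3 they changed by -2.39 to 0.63 with a median of -1.21, 0 past the threshold and 2 at an unadjusted p under 0.05. Over all co-culture days 3 of the 12 were lower, beside 11% of all genes. In that comparison 8 of the 12 had an unadjusted p under 0.05, beside 31.2% of all genes. Spry1 differed from d0 by -2.76, -3.23 and -3.70 on the 3 days, Fgf7 by -2.29, -2.92 and -1.34 and Etv5 by -1.34, -3.31 and -1.52. The change of Fgf7 was matched or exceeded by that of 1, 4 and 5 of the 12 stromal markers. Endothelial and epithelial marker means did not exceed 3.97 and 3.21 on any array.

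Around the 10 genes, 95 other genes of the pathway were listed by role, and 67 of them passed the filter. Of these, 0 rose in any comparison. Against d0, 1 of 67 fell on day 1 and 2 on day 2, beside 1.33% and 1.62% of all genes, so these counts are close to the background. On day 3, 2 of 67 fell, beside 0.467% of all genes, a larger share that rests on Hs6st1 and Flrt3. At an unadjusted p under 0.05 the 3 days held 14.9%, 32.8% and 13.4% of the pathway genes, beside 17.3%, 26.3% and 13.8% of all genes. In medium against d0, on LSK d1 against medium and on LSK d2 and LSK d3 against LSK d1, 0 of 67 passed. At an unadjusted p under 0.05 these 4 comparisons held 4.48%, 14.9%, 10.4% and 2.99% of the pathway genes, beside 9.45%, 20.9%, 12.6% and 2.93% of all genes. Their median change from d0 on day 2 was -0.93, beside -1.73 over the 9 members tested and -0.29 over all genes.

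Heparan sulphate genes had the lowest median of the 6 lists on day 2 against d0, -1.95, beside -2.12 for the stromal markers. On day 1 their median was 0.07. For some, 1 day 2 array lay far below the middle one, as for Sdc2 (2.28 beside 9.02) and Hs6st2 (3.18 beside 8.98). For others, such as Sulf2 (11.41 beside 11.81), it did not. How far the day 2 median rests on single arrays was not tested. Hs6st1, a sulphotransferase that adds 6-O-sulphate to the chains that hold FGF to its receptor, had a mean of 6.06 ± 0.41 at d0 (SD, n = 3), 6.11 ± 0.18 in medium (SD, n = 2), 4.80 ± 0.23 on day 1 (SD, n = 3), 4.23 ± 0.80 on day 2 (SD, n = 3) and 3.32 ± 0.23 on day 3 (SD, n = 2). It fell against d0 on day 2 (-1.82 ± 0.38, adjusted p = 0.0458) and day 3 (-2.74 ± 0.43, adjusted p = 0.0288), and its difference on day 1 was -1.26 (adjusted p = 0.122). The other 17 of 18 measured genes of this list did not pass against d0 on any day. Over all co-culture days 5 of 18 were lower, beside 11% of all genes: Hs6st1 (-1.96), its relative Hs6st2 (-3.69, adjusted p = 0.0308), the glypican gene Gpc6 (-3.61, adjusted p = 0.0111), Hs2st1, a 2-O-sulphotransferase (-1.83), and the FGF carrier gene Fgfbp3 (-2.12).

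In a list of 15 other feedback genes, drawn up mainly of inhibitors, Flrt3 was the only gene to pass against d0. It encodes a membrane protein that binds FGF receptors and is known to promote FGF signalling, so it is not an inhibitor. Its mean was 5.24 ± 0.89 at d0 (SD, n = 3), 2.93 ± 0.24 in medium (SD, n = 2) and 2.52 to 2.75 on the co-culture days. It fell against d0 on day 1 (-2.61 ± 0.38, adjusted p = 0.0127), day 2 (-2.49 ± 0.38, adjusted p = 0.0189) and day 3 (-2.72 ± 0.42, adjusted p = 0.0287). The medium control differed from d0 by -2.31 ± 0.42 (adjusted p = 0.0679), and day 1 from medium by -0.30 (adjusted p = 0.841), so unlike Spry1 its level in medium was near that in co-culture. The 13 measured genes of the receptor to ERK relay had 0 calls in the 7 single comparisons (30.8% at an unadjusted p under 0.05 on day 2 against d0, beside 26.3% of all genes), and over all co-culture days 1, the RAF kinase gene Braf, was lower (-2.62, adjusted p = 0.0151). Of 14 measured ERK-induced transcripts outside the 10 genes, 0 passed in any of the 8 comparisons (35.7% at an unadjusted p under 0.05 on day 2 against d0).

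**Figure D4:**
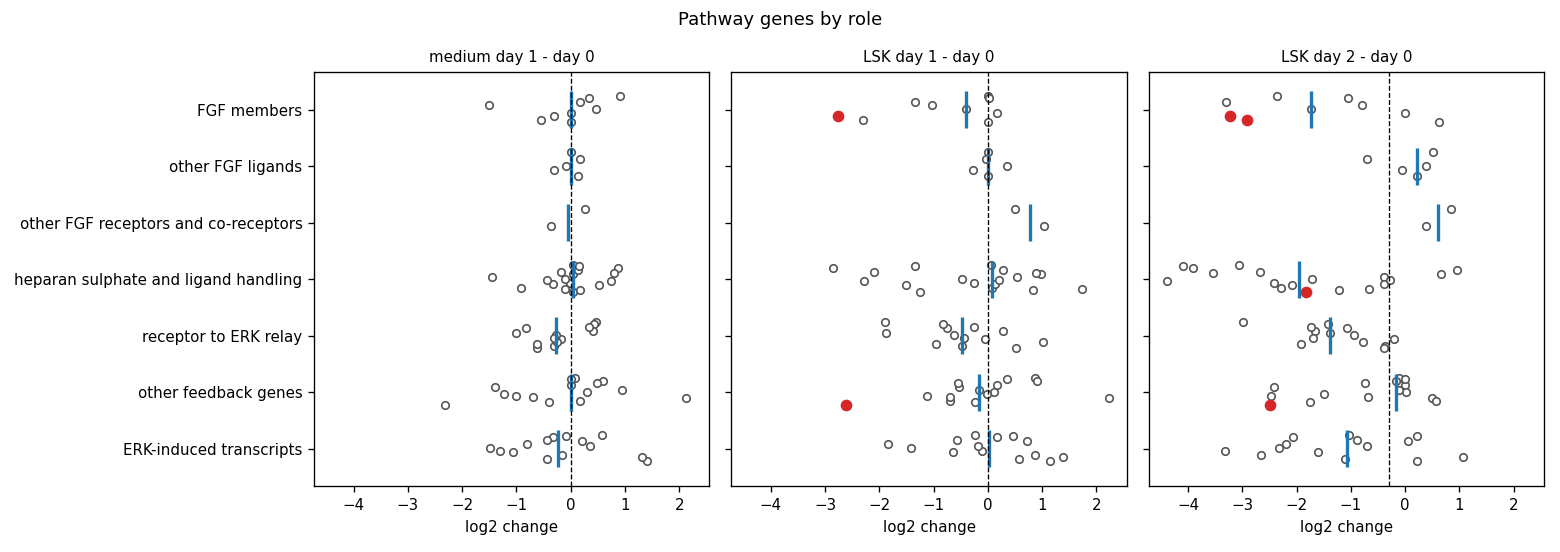
Log2 change from d0 of the 10 genes (9 tested) and the other measured pathway genes, by role, in medium, on LSK d1 and on LSK d2. Each point is a gene, red filled points passed an adjusted p of 0.05, blue bars are list medians and the dashed line is the median of all 12205 genes; on day 2 the heparan sulphate genes centre at -1.95 and all genes at -0.29.

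The counts for these lists moved with single arrays. On LSK d1 against medium the count was 12 without LSK d2 replicate 1 and 4 without LSK d2 replicate 3, in medium against d0 it was 1 without d0 replicate 3 or LSK d2 replicate 1, and on LSK d2 against LSK d1 it was 9 without LSK d2 replicate 3. Array weights gave 30 on LSK d1 against medium. Against d0 on day 1 the count was 0 without d0 replicate 2 or any 1 of the LSK d1 arrays, 2 without LSK d2 replicate 3 and 8 without LSK d2 replicate 1. On day 2 it was 0 without d0 replicate 1, d0 replicate 2 or LSK d2 replicate 2, 22 without LSK d2 replicate 3, 2 without LSK d2 replicate 1 and 1 without any other array. On day 3 it was 7 without LSK d2 replicate 1, 3 without LSK d2 replicate 2, 2 without LSK d2 replicate 3 or LSK d3 replicate 1, 1 without d0 replicate 3 and 0 without any other array. Over all co-culture days 7 genes were lower, and the count was 18 and 17 without LSK d2 replicates 1 and 3 and 2 and 1 without medium replicates 1 and 2.

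The promoters of the genes that were lower and of the feedback genes that overlapped are shown, since ETS factors, the class to which ETV5 belongs, bind sites built on GGAA. Each line gives the 250 bases before the gene's start in RefSeq (build GRCm38.p6), 5' to 3' on the gene's strand, and capitals mark GGAA or its reverse complement TTCC. Windows were found for 7 of the 10 genes. Spry1 lies at chr3:37639697-37639946 (+), Fgf7 at chr2:126034408-126034657 (+), Etv5 at chr16:22439571-22439820 (-), Spry2 at chr14:105896820-105897069 (-) and Dusp6 at chr10:99262981-99263230 (+).
Spry1: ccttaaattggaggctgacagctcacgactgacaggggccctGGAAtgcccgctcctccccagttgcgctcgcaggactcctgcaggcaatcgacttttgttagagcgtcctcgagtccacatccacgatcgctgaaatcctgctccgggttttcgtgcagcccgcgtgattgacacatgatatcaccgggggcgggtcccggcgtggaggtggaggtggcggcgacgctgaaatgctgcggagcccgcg
Fgf7: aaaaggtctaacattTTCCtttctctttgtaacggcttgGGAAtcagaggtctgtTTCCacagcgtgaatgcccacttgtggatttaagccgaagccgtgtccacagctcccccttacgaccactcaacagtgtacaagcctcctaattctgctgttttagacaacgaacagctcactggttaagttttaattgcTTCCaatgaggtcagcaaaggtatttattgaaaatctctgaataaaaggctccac
Etv5: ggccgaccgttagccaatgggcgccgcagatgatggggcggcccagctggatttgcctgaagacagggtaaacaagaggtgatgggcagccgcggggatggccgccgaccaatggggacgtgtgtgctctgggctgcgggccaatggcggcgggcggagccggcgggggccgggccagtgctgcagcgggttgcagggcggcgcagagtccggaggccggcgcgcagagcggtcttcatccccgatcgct
Spry2: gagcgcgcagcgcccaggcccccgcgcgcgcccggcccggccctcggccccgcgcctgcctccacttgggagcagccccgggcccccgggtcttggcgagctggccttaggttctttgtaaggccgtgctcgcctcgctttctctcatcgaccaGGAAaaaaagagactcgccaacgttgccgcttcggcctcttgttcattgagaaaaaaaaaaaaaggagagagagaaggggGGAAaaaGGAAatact
Dusp6: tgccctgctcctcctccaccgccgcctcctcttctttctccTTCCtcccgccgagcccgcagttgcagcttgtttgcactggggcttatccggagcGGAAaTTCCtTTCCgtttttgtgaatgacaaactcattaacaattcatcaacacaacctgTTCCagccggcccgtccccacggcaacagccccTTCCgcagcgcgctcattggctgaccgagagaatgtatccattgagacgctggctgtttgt

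The number of matches did not divide the genes that were lower from those that overlapped. Spry1 had 1 match, 208 bases before the start, Fgf7 had 4 and Etv5 had 0 in this window and 4 in that of a second start. Spry2 had 3, at 96, 16 and 9 bases before the start, and Dusp6 had 6. GGAA on either strand occurs in 93.4% of 32851 mouse windows of the same length, 1 or none in 23.2% and 6 or more in 8.7%, so a match is common in such windows. The longer ETS string CCGGAAG (6.9% of windows), the AP-1 string TGANTCA (6.7%) and the CRE string TGACGTCA (1.5%), each searched on both strands, were in none of the members' windows. A match is a run of letters and not a bound site.

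The genes most like each called member over the 13 arrays were found by Pearson's r, given as a description. For Spry1 they were Hook3 (0.981), Arl1 (0.972) and Fbxl7 (0.97), for Fgf7 Kat2b (0.978), Parp12 (0.948) and Prrx1 (0.923), and for Etv5 Zfp507 (0.976), Cald1 (0.969) and Khdc4 (0.962). The arrays share the split into groups with and without LSK cells, which enters every such r. None of the 9 genes is a member or on a pathway list.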

How the data were processed

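Arrays were read from the deposited values of 13 samples, 1 value per probe set. The values are on a log2 scale, as deposited by the authors; RMA and GCRMA are named, per the submitters' processing notes, with no statement of which of them made these values. Background correction and quantile scaling of this kind set dim probe sets to a shared or repeated low value, so differences near it are not resolved. Of 45101 probe sets, 64 controls were left out; 34958 had 1 gene symbol, 932 several and 9211 none, and only the first kind was named. Probe sets above the pooled median (2.38) on at least 2 arrays were kept (25216), and per gene the one with the highest mean was used, which left 12205 genes. limma 3.58.1 in R 4.3.3 fitted 1 mean per group over all 13 arrays, with empirical Bayes tests on contrasts and Benjamini-Hochberg adjustment over these genes. The script was tested on simulated data; tables used Python 3.11.15.

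The 10 genes and the lists were chosen with earlier results of these data known. The text names all members, up to 3 passing genes per pathway list and comparison with the largest change (all of them where 5 or fewer passed), and the 3 genes most like each member called. The comparison over all co-culture days, the count of arrays that do not overlap and the 2 gene differences were added after the values had been seen; permutation tests of these differences are not reported, since the pairs were picked from the same values. Sequences came from RefSeq. Alternatives were other filters, scalings, probe set rules, variance models, array weights, only the groups compared, a replicate block and arrays left out. Depth has no count here; the number of arrays limits precision.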

Additional observations from a re-analysis of the deposited data

How the results depend on the processing

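Of the 10 genes, the number past the threshold was small and changed easily. With no filter on low values it was 0 instead of 1, 2 and 1 on LSK d1, LSK d2 and LSK d3 against d0. Quantile normalization gave 1 for LSK d1 against medium and 1 for LSK d2 against d0, centring on measured probe sets 0 for LSK d2 against d0, the mean of a gene's probe sets 2 for LSK d1 against d0, and a trended robust variance 0 for LSK d1 against d0 and 1 for LSK d2 against d0. Array weights gave 2 in medium against d0, 5 for LSK d1 against medium, 2, 5 and 0 on LSK d1, LSK d2 and LSK d3 against d0, 2 for LSK d2 against LSK d1 and 5 over all co-culture days. Fits of only the groups compared gave 4 for LSK d1 against medium and 0 for LSK d2 and LSK d3 against d0. Without both LSK d2 replicate 1 and LSK d3 replicate 2 the counts were 1 for LSK d1 against medium and 0 for LSK d2 and LSK d3 against d0. Leaving out 1 array gave 0 to 1 for LSK d1 against medium, 0 to 2, 0 to 4 and 0 to 1 on LSK d1, LSK d2 and LSK d3 against d0, 0 to 2 for LSK d2 and 0 to 1 for LSK d3 against LSK d1, and 1 to 4 over all co-culture days. No member's called change reversed, and the causes were not tested. Spry1 over all co-culture days passed in 22 of 22 alternatives, Fgf7 in 20 and Etv5 in 11.

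The Etv5 minus Dusp6 shift was -1.49 without both arrays and -1.33 to -0.54 without single arrays. The Spry1 minus Spry2 shift was -3.54 to -2.58 in 15 alternatives.

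Same-numbered arrays did not deviate together throughout (8 of 23 pairs had a correlation over 0.1, range -0.371 to 0.261), and the numbers were not taken as a pairing. Deviations from the mean of so few arrays cancel within a group, so this check is weak and cannot exclude a shared batch. With a replicate block, 0 members passed on LSK d1, LSK d2 or LSK d3 against d0, with Spry1 at adjusted p = 0.0832, 0.0639 and 0.113.

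Over all 12205 genes the counts were as unstable. They ran from 9 to 1290 for LSK d1 against d0 (main value 263), from 26 to 3497 for LSK d2 (276) and from 4 to 939 for LSK d3 (100) without single arrays, with 3583 for LSK d1 under array weights. Centring moved the median of all genes on LSK d2 against d0 from -0.29 to 0.49, and the share of lower genes among those called over all co-culture days went from 65.5% to 47.7%. In medium against d0 that share went from 32.5% to 50% and on LSK d2 against d0 from 71.7% to 51%. Quantile normalization gave 48.1% over all co-culture days, 46.2% instead of 58.6% for LSK d1 against medium, 48.5% instead of 61.6% for LSK d1 against d0 and 53.9% for LSK d2 against d0. Repeated low values limit what Spry1 can show on days 2 and 3 and what Fgfr2 can show on day 2. The second Fgf7 set, at 5.56 to 5.58 on days 1 and 2, is limited in the same way on those days.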
